A study of Mus musculus with 12 samples.

Results

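The 10 genes described here are Racgap1, Kif23, Prc1, Kif20a, Ect2, Anln, Cit, Iqgap3, Septin7 and Cep55, which act in the central spindle, the contractile ring and abscission during cytokinesis. They were taken by symbol from a list that was chosen with earlier results of these data known. All 10 were found in both deposited count tables, of 25239 gene symbols each. RNA of mouse heart cardiomyocytes, cultured per the labels, was sequenced in 12 libraries, 3 in each of 4 groups. Chaf1a cko and Ctrl, called the first set here, share a table, and Chaf1a cko 3M and Ctrl 3M, the 3M set, share another. The Chaf1a cko mice combine Myh6-Cre, a recombinase expressed from a promoter of heart muscle cells, with floxed Chaf1a, and the series describes its controls as floxed mice without the Cre. Effects of the Cre itself and of losing Chaf1a therefore cannot be told apart. The labels call the controls WT, leave 3M unexplained and state no age for the other set. Separate animals are not named either, so a p-value here reflects the variation among libraries, part or all of which could be technical. Each column of the 3M table is headed with a number of its own, and whether these number animals is unknown here.

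Cytokinesis splits the cell after mitosis. Antiparallel microtubules are bundled between the separating chromosomes into the central spindle, which places active RhoA at the equator of the cell. RhoA assembles a ring of actin, myosin II, anillin and septins, and the bridge left when the ring has closed, the midbody, is cut by the ESCRT machinery. Mouse heart muscle cells largely stop dividing soon after birth, and many then copy their DNA without completing this step, which leaves them with several nuclei or with 1 polyploid nucleus. Chaf1a encodes the large subunit of the histone chaperone CAF-1, which puts new histones on replicated DNA.

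Total counts lay between 15068468 and 20896673 per library for the first set and between 10569325 and 16445963 for the 3M set. The targeted gene, Chaf1a, showed no decrease in libraries with the label Chaf1a cko. It was at 22.0 to 29.0 CPM (counts scaled to the size of the library with TMM factors) in Chaf1a cko and 18.8 to 32.3 CPM in Ctrl (log2 fold change 0.03, adjusted p 0.981 in edgeR's quasi-likelihood test), and at 5.54 to 8.34 CPM in Chaf1a cko 3M and 1.88 to 9.75 CPM in Ctrl 3M (log2 fold change 0.25, adjusted p 0.952). The labels do not locate the floxed exons, and a count per gene does not separate them. Groups are therefore called by their labels throughout, and every direction below is that of the libraries so labelled. The 10 cardiomyocyte markers summed to 60670 to 61126 CPM in Chaf1a cko and 63540 to 65340 CPM in Ctrl, and to 45730 to 49120 CPM in Chaf1a cko 3M and 30753 to 43183 CPM in Ctrl 3M, and none was at 0 in all libraries of a set. Markers of fibroblasts and endothelium were measured in every library as well. In such bulk RNA, fewer cells of a type and less RNA per cell cannot be told apart. Chemoreceptor genes, taken as silent in heart cells, gave the first set a background per kilobase of exon. It was 0.507 to 0.519 CPM in Chaf1a cko and 0.538 to 0.594 CPM in Ctrl, and the median was 0 in the 3M set. Between 94.7% and 97.5% of these genes had counts in a library of the first set, and between 1.23% and 1.68% in the 3M set.

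In the first set, 2 of the 10 cytokinesis genes rose in Chaf1a cko. Anln, the scaffold that joins RhoA, actin, myosin and septins in the ring, was 1.43-fold higher, and Septin7, a subunit of septin filaments, was 1.20-fold higher; both passed at an adjusted p under 0.05 in edgeR's quasi-likelihood test. The other 8 did not pass, with estimates from 0.03 to 0.45 on the log2 scale. All 10 estimates were above 0, and their median log2 fold change was 0.27, against -0.01 over the 22965 genes tested. Of the 10 genes, 2 were called higher and 0 lower, while 0.740% of all genes tested were called higher and 1.18% in either direction. In the 3M set 9 of the 10 were tested and none was called, while 0.0144% of all genes tested there were called in either direction. The estimates ran from -2.24 to 1.02.

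The promoters of genes of this kind are known for a CHR element, which the MuvB complex binds, and for CCAAT boxes, which NF-Y binds; some also hold E2F sites. RefSeq promoter windows of GRCm38.p6, the assembly behind mm10, ran from 250 bases before to 50 after the annotated start. The search covered 9 of the 10 genes, taken by symbol, and left out Kif20a. RefSeq starts can differ from those of the GENCODE annotation that gives the gene positions below. The Septin7 window lies wholly before its GENCODE start, and the Cit window lies wholly after its GENCODE start. Windows are printed for the pair of genes that passed the test (Anln and Septin7), for Kif23 and Ect2, and for Cit, whose window held no match. Kif23 and Ect2 hold CHR and CCAAT matches and had groups that did not overlap in the first set. The same is true of Racgap1, whose window is not printed. Prc1, also not printed, holds both matches too, but its groups overlapped. Anln and Septin7 hold CHR matches and no CCAAT. Capitals mark exact matches on either strand of the CHR letters TTTGAA, of the box CCAAT and of 2 forms of an E2F site, the first TTCCCGC and the second TTGGCGC, and each sequence runs 5′ to 3′ on the strand of the gene.
Anln, chr9:22389157-22389456, minus strand: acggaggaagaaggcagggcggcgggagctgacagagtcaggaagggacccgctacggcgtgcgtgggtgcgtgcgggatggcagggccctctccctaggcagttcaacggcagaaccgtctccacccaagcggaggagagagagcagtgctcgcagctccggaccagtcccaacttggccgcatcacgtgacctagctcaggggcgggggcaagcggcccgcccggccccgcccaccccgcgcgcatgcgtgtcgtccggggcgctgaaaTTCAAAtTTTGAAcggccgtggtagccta
Septin7, chr9:25251741-25252040, plus strand: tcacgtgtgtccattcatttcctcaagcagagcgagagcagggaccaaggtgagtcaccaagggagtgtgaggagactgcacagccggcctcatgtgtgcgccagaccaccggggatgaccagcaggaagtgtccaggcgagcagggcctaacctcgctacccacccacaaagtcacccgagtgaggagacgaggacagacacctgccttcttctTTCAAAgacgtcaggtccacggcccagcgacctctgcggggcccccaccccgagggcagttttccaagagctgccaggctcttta
Kif23, chr9:61946750-61947049, minus strand: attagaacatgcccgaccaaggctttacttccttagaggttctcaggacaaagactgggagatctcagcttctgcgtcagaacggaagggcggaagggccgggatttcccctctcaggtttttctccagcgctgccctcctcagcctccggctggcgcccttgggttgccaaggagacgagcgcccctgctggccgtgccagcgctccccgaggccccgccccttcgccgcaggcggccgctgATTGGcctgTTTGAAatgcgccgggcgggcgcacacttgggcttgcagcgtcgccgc
Ect2, chr3:27153829-27154128, minus strand: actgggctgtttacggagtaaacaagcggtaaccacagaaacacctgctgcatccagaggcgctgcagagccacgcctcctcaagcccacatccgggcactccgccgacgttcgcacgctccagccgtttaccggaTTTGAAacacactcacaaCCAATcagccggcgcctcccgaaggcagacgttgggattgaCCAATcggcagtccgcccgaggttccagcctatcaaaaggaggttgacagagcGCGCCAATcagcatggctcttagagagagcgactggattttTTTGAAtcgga
Cit, chr5:115845406-115845705, plus strand: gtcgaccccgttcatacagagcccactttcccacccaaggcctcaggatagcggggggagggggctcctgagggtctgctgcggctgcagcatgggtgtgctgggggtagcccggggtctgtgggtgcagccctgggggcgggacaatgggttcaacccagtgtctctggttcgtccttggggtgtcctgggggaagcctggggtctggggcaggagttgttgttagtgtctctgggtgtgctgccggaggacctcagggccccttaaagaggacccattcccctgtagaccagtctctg

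The CHR letters were in 8 of the 9 windows, all but that of Cit, and in 18.1% of all 27025 promoter windows of the table. CCAAT was in 4 of the 9 (Racgap1, Kif23, Prc1 and Ect2) and in 37.9% of all windows. The same 4 held both CHR and CCAAT, as did 7.12% of all windows. An E2F match was in 1 of the 9, that of Ect2, and in 6.93% of all windows, and it overlaps a CCAAT match there, so that GCGCCAAT holds both. Around the start site, the CHR match began at base 6 after it in Racgap1, at base 3 after it in Kif23 and at base -5 in Prc1, each with a CCAAT match before it, at -12, -7 and -37. In Anln 2 CHR matches of opposite strand stand at 22 and 29, and in Septin7 the only match is a CHR at -35 on the other strand. These matches describe the letters in the window and are neither binding sites nor causes.

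**Figure D1:**
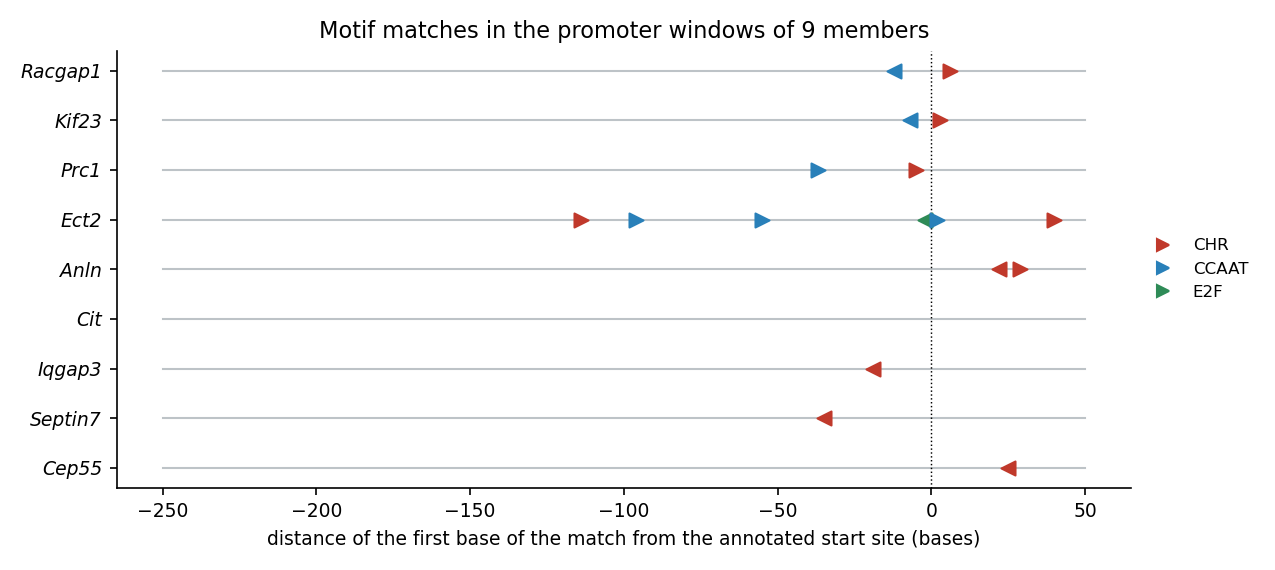
Positions of exact CHR, CCAAT and E2F matches in the promoter windows of 9 cytokinesis genes. The horizontal axis is the distance in bases of the first base of a match from the annotated start site (dotted line), and the point of each triangle gives the strand of the match relative to the gene; 8 of the 9 windows hold a CHR match, and 4 hold CHR and CCAAT.

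Of the 4 central spindle genes, 2 had non-overlapping groups with Chaf1a cko higher, which 8.33% of all genes tested had, and none was called. Racgap1 (chr15:99620496-99651656, minus strand) encodes the GTPase-activating subunit of centralspindlin, the complex that bundles microtubules and recruits Ect2. Its level, in the order of replicates 1 to 3 here and below, was 76.6, 76.8 and 80.4 CPM in Chaf1a cko, against 65.9, 63.7 and 56.7 CPM in Ctrl. The 3 Chaf1a cko libraries all lay above the 3 Ctrl libraries (log2 fold change 0.33, SE 0.09, adjusted p 0.103 in edgeR's quasi-likelihood test). A processed pseudogene in the annotation, not named in the count tables, matches 488 bases of a Racgap1 transcript at 98.2% identity, so some reads could be shared. Kif23 (chr9:61915905-61946774, minus strand), the kinesin subunit of the same complex, was at 73.3, 79.2 and 80.0 CPM in Chaf1a cko, against 61.8, 57.2 and 64.8 CPM in Ctrl. Its groups were likewise apart, and the size was nearly that of its partner (log2 fold change 0.34, SE 0.09, adjusted p 0.0856). Both missed the threshold in edgeR and passed it in the Wald test of DESeq2, with adjusted p-values of 0.0220 for Racgap1 and 0.0147 for Kif23.

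Prc1 (chr7:80294450-80316259, plus strand), which cross-links the antiparallel microtubules, was at 79.5, 85.4 and 86.7 CPM in Chaf1a cko, against 82.2, 68.3 and 75.0 CPM in Ctrl. Replicate 1 of Ctrl lay above replicate 1 of Chaf1a cko, so the groups overlapped, and the difference did not pass (log2 fold change 0.16, SE 0.09, adjusted p 0.586). Kif20a (chr18:34624613-34633277, plus strand), the kinesin that brings Aurora B to the central spindle, was at 54.3, 47.4 and 58.4 CPM in Chaf1a cko, against 57.3, 48.8 and 47.5 CPM in Ctrl. Its groups lay over each other, with an interval of the log2 fold change from -0.17 to 0.30. Both genes share exon bases with a gene on the other strand, 670 bases of Prc1 with Rccd1 and 1271 bases of Kif20a with Cdc23. Whether counting used the strand is unknown here, so reads of these partners cannot be told apart.

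Ect2 (chr3:27097222-27153878, minus strand) is the exchange factor that loads RhoA with GTP at the equator. It was at 39.4, 43.6 and 40.8 CPM in Chaf1a cko, against 29.6, 34.3 and 27.0 CPM in Ctrl. The lowest Chaf1a cko library was above the highest Ctrl library, and the estimate was the second in size among the 10 genes (1.36-fold, 95% interval from 1.13 to 1.64). It did not pass in edgeR (adjusted p 0.130) and passed in DESeq2 (adjusted p 0.0259).

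The contractile ring gave both of the genes that passed and 2 whose groups overlapped. Anln (chr9:22332012-22389188, minus strand) was at 85.3, 68.4 and 78.1 CPM in Chaf1a cko, against 46.9, 61.9 and 52.9 CPM in Ctrl. Its groups did not overlap, with means of 77.3 ± 8.48 CPM in Chaf1a cko and 53.9 ± 7.53 CPM in Ctrl (SD, n = 3 each). The difference passed at a log2 fold change of 0.52 (SE 0.11, adjusted p 0.0242 by edgeR). Septin7 (chr9:25252439-25308571, plus strand) was at 255, 243 and 238 CPM in Chaf1a cko, against 208, 204 and 203 CPM in Ctrl. Its difference was smaller than that of Anln but its libraries lay closer together, at 245 ± 8.68 CPM in Chaf1a cko and 205 ± 2.71 CPM in Ctrl (SD, n = 3 each), and the test gave a log2 fold change of 0.26 with an SE of 0.05 and an adjusted p of 0.0198. The processed pseudogene Gm48272, on the other strand at the same locus, matches 214 bases of a Septin7 transcript at 100% identity, so some reads could be shared.

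Both calls changed when single libraries were left out. Anln no longer passed without Chaf1a cko replicate 1 (adjusted p 0.182) or 3 (0.138), or without Ctrl replicate 1 (0.113) or 3 (0.128), while its log2 fold change kept between 0.43 and 0.63. Septin7 no longer passed without Chaf1a cko replicate 1 (0.148), 2 (0.0857) or 3 (0.0552), or without Ctrl replicate 2 (0.109) or 3 (0.0851), with a log2 fold change between 0.23 and 0.28.

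Cit (chr5:115845278-116008947, plus strand), the citron kinase that binds RhoA and stabilises the midbody, was at 54.1, 48.8 and 64.3 CPM in Chaf1a cko, against 60.7, 57.7 and 45.7 CPM in Ctrl. Its groups overlapped throughout (log2 fold change 0.03, 95% interval from -0.23 to 0.29). Iqgap3 (chr3:88081971-88121048, plus strand), an actin-binding scaffold of the IQGAP family, was at 57.1, 56.0 and 62.5 CPM in Chaf1a cko, against 47.1, 61.7 and 50.2 CPM in Ctrl. Replicate 2 of Ctrl lay within the range of the Chaf1a cko libraries (log2 fold change 0.14, 95% interval from -0.09 to 0.38). Cep55 (chr19:38055011-38074423, plus strand), which brings the ESCRT machinery to the midbody for abscission, was at 21.8, 24.9 and 23.4 CPM in Chaf1a cko, against 21.5, 19.2 and 16.6 CPM in Ctrl. Its groups did not overlap, by a gap between 21.8 and 21.5 CPM, and the difference did not pass (log2 fold change 0.29, SE 0.16, adjusted p 0.580).

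**Figure D2:**
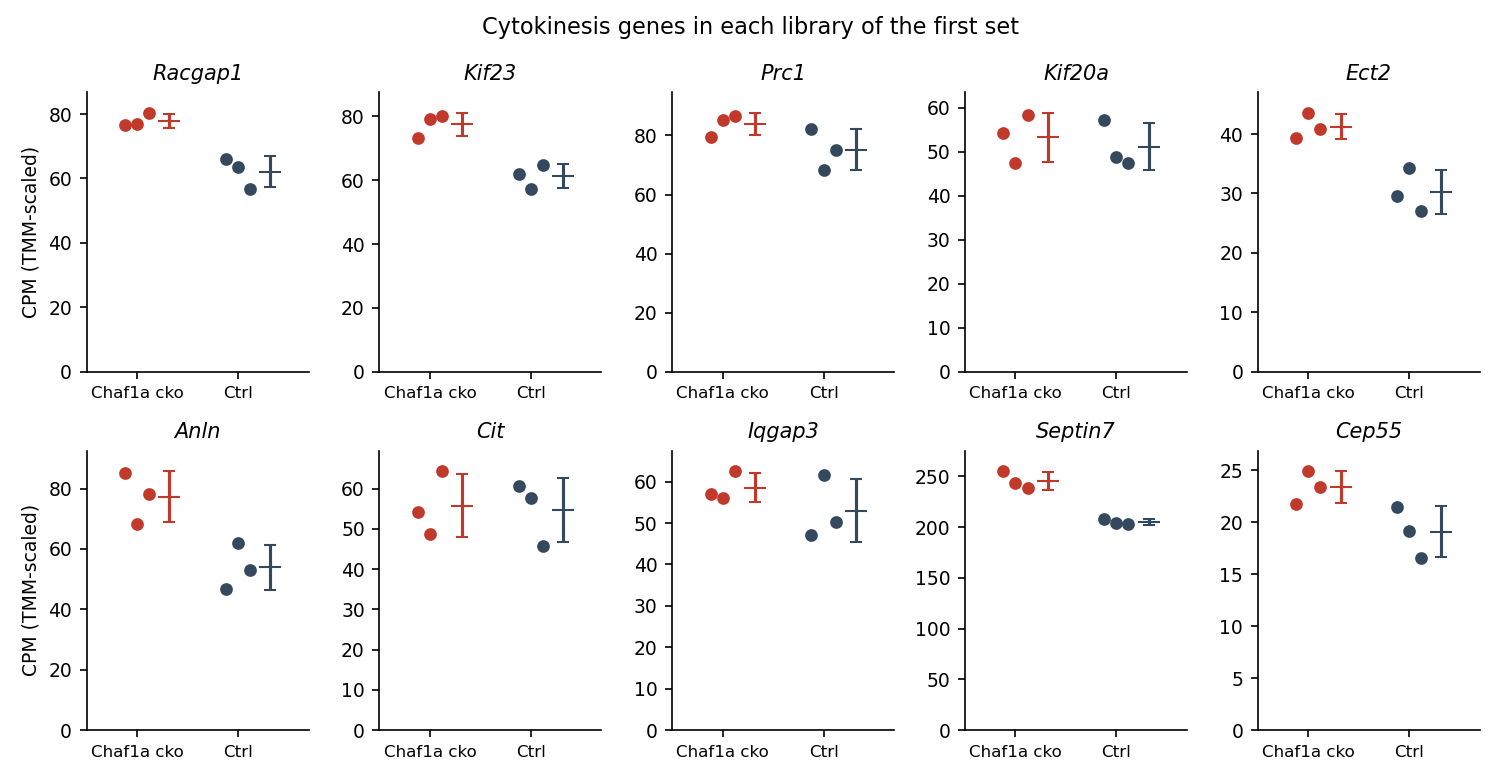
Level of each of the 10 cytokinesis genes in the first set, in TMM-scaled CPM on axes that start at 0. Points are libraries (Chaf1a cko red, Ctrl dark blue, replicates 1 to 3 from left to right) and the bar beside them is the mean with its SD (n = 3 each); the groups of Racgap1, Kif23, Ect2, Anln, Septin7 and Cep55 do not overlap.

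By looser measures, 6 of the 10 genes had non-overlapping groups with Chaf1a cko higher, which 8.33% of all genes tested had, and 5 of the 10 (Anln, Septin7, Racgap1, Kif23 and Ect2) had an unadjusted p under 0.05 with Chaf1a cko higher, against 5.63% of all genes. DESeq2 called these same 5, and it called 2.09% of all genes in either direction. Summed over the 10 genes the level was 773 to 812 CPM in Chaf1a cko and 639 to 681 CPM in Ctrl. Without Septin7, the most abundant of them, the other 9 summed to 530 to 575 CPM in Chaf1a cko and 436 to 473 CPM in Ctrl. The groups were apart in both sums.

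The background made up 0.702% of the Ctrl level of Septin7 and 9.90% of that of Cit, the lowest and highest share among the 10. With it removed, the median log2 ratio of the means was 0.29. Per kilobase of exon, Septin7 was highest in both groups, at 96.6 ± 3.42 CPM in Chaf1a cko and 80.6 ± 1.07 CPM in Ctrl (SD, n = 3 each). In Chaf1a cko it was followed by Prc1 (27.3 CPM per kilobase), Racgap1 (25.4), Kif23 (22.8), Anln (16.8), Kif20a (13.3), Ect2 just above Iqgap3 (9.95), Cep55 (8.45) and Cit (5.83). The mean ± SD ranges of the neighbours Prc1 and Racgap1, and of Ect2 and Iqgap3, overlapped in Chaf1a cko. In Ctrl the order was the same except that Kif20a stood above Anln and Iqgap3 above Ect2, and only Septin7, Prc1 and Kif23 were apart from the next gene below.

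Other markers moved between the same groups. Summed Y-linked genes were at 115 CPM or more in Chaf1a cko and at 61.1 CPM or less in Ctrl, and the 10 fibroblast markers summed to 2990 to 3015 CPM in Chaf1a cko and 3589 to 3692 CPM in Ctrl, with 5 of 10 called lower. The cardiomyocyte markers had 2 of 10 called higher and 3 lower, and the sums of the 2 groups did not overlap. The 10 endothelial markers summed to 3327 to 3394 CPM in Chaf1a cko and 3298 to 3558 CPM in Ctrl. The 9 erythroid markers in the tables summed to 2308 to 2331 CPM in Chaf1a cko and 1665 to 2240 CPM in Ctrl, and the macrophage markers to 84.9 to 98.9 CPM in Chaf1a cko and 94.0 to 109 CPM in Ctrl. No marker of these lists was at 0 in all libraries of the first set. The part of sex mixture or of other cell types in the differences of the cytokinesis genes was not tested.

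A wider list of 41 other cytokinesis genes had 0 called in the first set in edgeR's quasi-likelihood test, with 34 estimates above 0 and a median log2 fold change of 0.09. At an unadjusted p under 0.05, 11 of the 41 were higher in Chaf1a cko and 0 lower, against 5.63% of all genes tested higher. DESeq2 called 2, Aurkb and Kif4, and it called 2.09% of all genes in either direction. The groups of 13 of the 41 were apart with Chaf1a cko higher, which 8.33% of all genes tested had. The median differed by role, at 0.36 for the 5 genes of the chromosomal passenger complex and its kinases, 0.26 for 4 other central spindle and midbody genes, 0.08 for 15 ring genes and 0.06 for 17 abscission genes.

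Aurkb, the kinase of the passenger complex, averaged 18.2 ± 0.574 CPM in Chaf1a cko and 12.3 ± 0.415 CPM in Ctrl (SD, n = 3 each). The groups were well apart (log2 fold change 0.56, SE 0.17), and the adjusted p was 0.182. Incenp, its scaffold, had a log2 fold change of 0.28 (adjusted p 0.182), and the midbody kinesins Kif4 and Kif20b had 0.40 (adjusted p 0.111) and 0.23 (adjusted p 0.480). Rhoa, the switch that Ect2 activates, averaged 243 ± 13.9 CPM in Chaf1a cko and 215 ± 3.93 CPM in Ctrl (SD, n = 3 each; log2 fold change 0.18, adjusted p 0.201). Myh9, a heavy chain of nonmuscle myosin II, averaged 951 ± 28.0 CPM in Chaf1a cko and 873 ± 19.6 CPM in Ctrl (log2 fold change 0.12, adjusted p 0.144). The abscission genes with the smallest p, Zfyve19, a regulator of the abscission checkpoint, and Vps4a, an ATPase of the ESCRT machinery, had log2 fold changes of 0.46 and 0.25 (adjusted p 0.466 and 0.521).

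Among 18 genes of earlier mitosis, 7 were called higher and 0 lower in edgeR (12 higher in DESeq2). Over all genes tested, edgeR called 0.740% higher, and DESeq2 called 2.09% in either direction. All 18 estimates were above 0, with a median log2 fold change of 0.40, against 11272 of 22965 above 0 over all genes tested. Mki67, the proliferation marker Ki-67, averaged 784 ± 8.91 CPM in Chaf1a cko and 609 ± 2.06 CPM in Ctrl (SD, n = 3 each; log2 fold change 0.36, adjusted p 1.4e-05). Nuf2, a kinetochore subunit, was at 27.8, 29.1 and 26.9 CPM in Chaf1a cko, against 17.5, 16.2 and 16.0 CPM in Ctrl (log2 fold change 0.75, adjusted p 0.0125). Top2a, the topoisomerase that untangles sister chromatids, and Hmmr, a spindle protein, rose by 0.42 and 0.55 on the log2 scale (adjusted p 0.000653 and 0.00366), as did the centromere protein Cenpf by 0.25 (adjusted p 0.0141) and the spindle kinesin Kif11 by 0.44 (adjusted p 0.0199). Without 1 library these last 2 and Nuf2 could fall out of the calls (Nuf2 without any but Ctrl replicate 1, highest adjusted p 0.0821; Cenpf without any but Ctrl replicates 1 and 3, 0.109; Kif11 without any but Chaf1a cko replicate 2, 0.168), while Mki67, Top2a and Hmmr passed in each such fit. The mitosis genes and the 10 cytokinesis genes thus had estimates of the same sign in the same 6 libraries, and no test compared the lists with each other. Of 11 genes for regulators of such promoters, 0 were called in edgeR. An unadjusted p under 0.05 with Chaf1a cko higher was found for 2 of the 11, against 5.63% of all genes tested. Foxm1, a factor that acts with MuvB in G2, was at 66.7, 60.0 and 69.4 CPM in Chaf1a cko, against 52.3, 49.5 and 50.1 CPM in Ctrl (log2 fold change 0.37, adjusted p 0.0838; 0.0126 in DESeq2), and Rbl2, the pocket protein p130, had a log2 fold change of 0.21 (adjusted p 0.460).

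**Figure D3:**
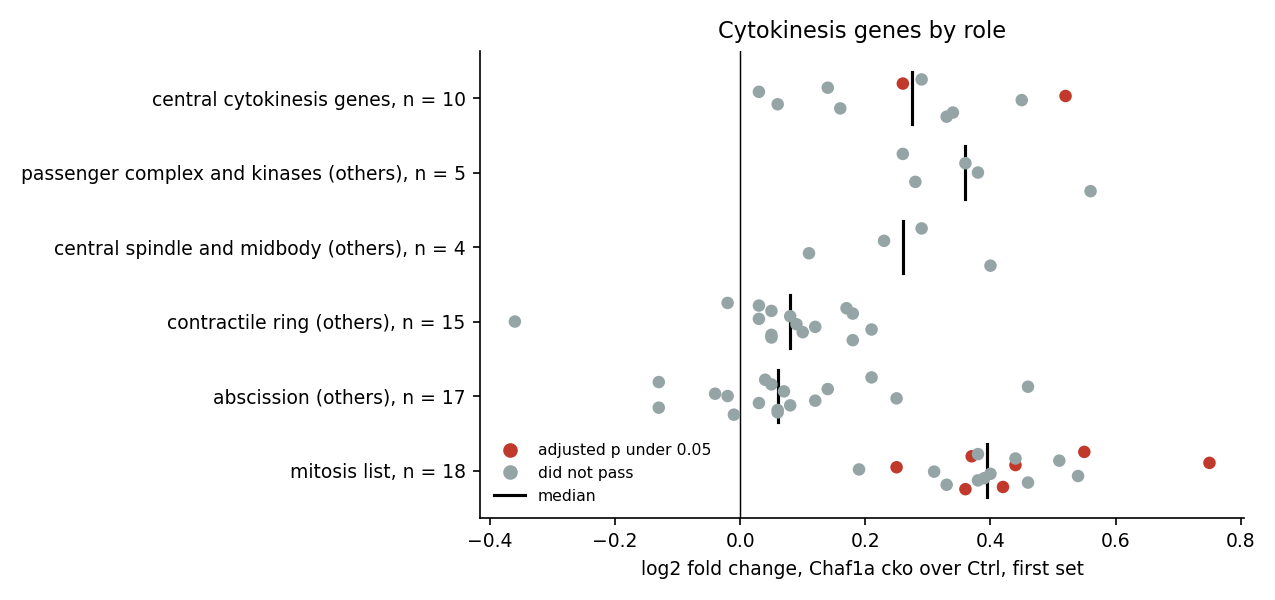
Log2 fold change of Chaf1a cko over Ctrl in the first set for each gene of 6 lists, with red points for an adjusted p under 0.05 in edgeR and a black line at the median of the list. The medians lie at 0.27 for the 10 central cytokinesis genes, 0.36, 0.26, 0.08 and 0.06 for the other cytokinesis genes by role, and 0.40 for the mitosis list.

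In the 3M set the cytokinesis genes other than Septin7 had low counts. The 9 genes without Septin7 had 274 to 438 counts in all per library in Chaf1a cko 3M and 312 to 603 in Ctrl 3M. Cep55 did not pass the filter on low counts, so 9 of the 10 were tested. None was called in edgeR's quasi-likelihood test or in DESeq2, none had an unadjusted p under 0.05 and none had non-overlapping groups. Over all 13925 genes tested the shares were 0.0144% called in edgeR, 0.517% called in DESeq2, 6.93% at an unadjusted p under 0.05 and 14.1% without overlap. The median log2 fold change of the 9 genes was -0.33, against -0.02 over all genes tested, and it was 0.02 without replicate 1 and 0.00 without replicate 2 of Ctrl 3M, -0.02 without replicate 2 of Chaf1a cko 3M and -0.19 to -0.07 without each of the other 3.

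Septin7 was at 209, 154 and 138 CPM in Chaf1a cko 3M, against 380, 212 and 172 CPM in Ctrl 3M. Replicate 1 of Ctrl 3M was the highest library, and replicate 3 of Ctrl 3M lay below replicate 1 of Chaf1a cko 3M, so the groups overlapped (log2 fold change -0.61, SE 0.31, adjusted p 0.753). Without replicate 1 of Ctrl 3M the estimate was -0.20. Anln was at 5.62, 2.12 and 1.27 CPM in Chaf1a cko 3M, against 36.4, 2.96 and 2.88 CPM in Ctrl 3M. These CPM values stand for 60, 33 and 20 counts in Chaf1a cko 3M and 388, 50 and 36 counts in Ctrl 3M. The estimate of -2.24 (SE 1.19, adjusted p 0.760) rests on replicate 1 of Ctrl 3M and was 0.03 without it. Cep55 had 0, 4 and 0 counts in Chaf1a cko 3M, against 36, 4 and 0 counts in Ctrl 3M, with the 36 again in replicate 1. A count of 0 allows up to 0.281 CPM in replicate 1 and 0.191 CPM in replicate 3 of Chaf1a cko 3M, and up to 0.239 CPM in replicate 3 of Ctrl 3M, for counting error only.

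The central spindle genes showed no direction in common. Racgap1 was at 3.94, 7.51 and 5.41 CPM in Chaf1a cko 3M, against 1.88, 6.93 and 4.16 CPM in Ctrl 3M, and Kif23 was at 3.56, 4.62 and 6.43 CPM in Chaf1a cko 3M, against 4.13, 6.10 and 8.15 CPM in Ctrl 3M. The centralspindlin pair thus had estimates on either side of 0 (log2 fold changes 0.37 with an SE of 0.59 and -0.33 with an SE of 0.49), each within the spread of the libraries. Prc1 ranged from 2.42 to 4.78 CPM in Chaf1a cko 3M and from 2.66 to 4.0 CPM in Ctrl 3M, and Kif20a from 0.764 to 2.82 CPM in Chaf1a cko 3M and from 2.24 to 3.28 CPM in Ctrl 3M. Ect2 had 37, 76 and 0 counts in Chaf1a cko 3M, against 28, 9 and 12 counts in Ctrl 3M, and the 0 allows up to 0.191 CPM. Its interval of the log2 fold change ran from -2.28 to 4.33, the widest of the 9. Cit ranged from 0.578 to 2.48 CPM in Chaf1a cko 3M and from 1.12 to 3.79 CPM in Ctrl 3M, and Iqgap3 from 0.656 to 2.42 CPM in Chaf1a cko 3M and from 0.657 to 1.44 CPM in Ctrl 3M. With this spread a change of the size seen in the first set was not detectable, since the shortest interval, that of Septin7, spans -1.32 to 0.10.

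**Figure D4:**
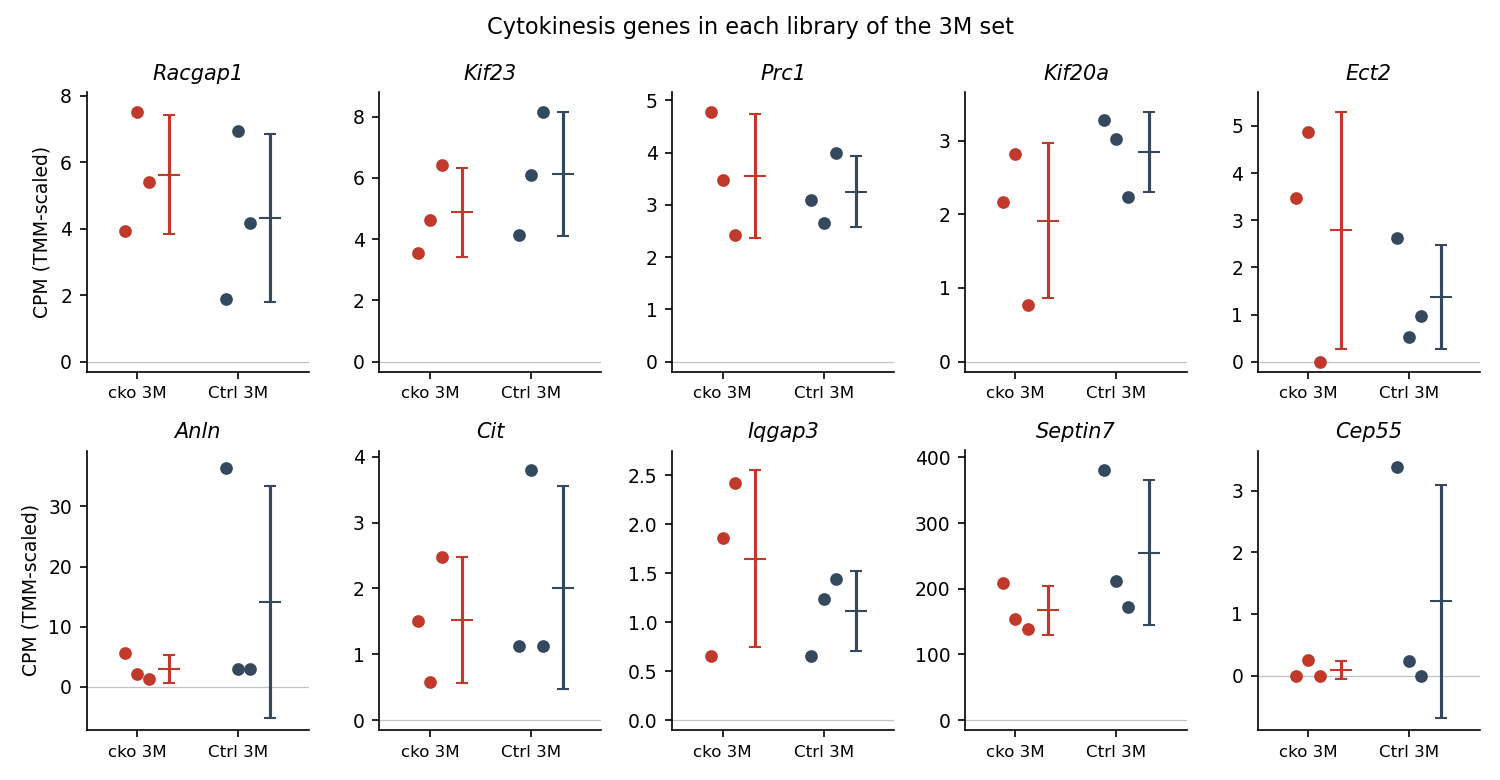
Level of each of the 10 cytokinesis genes in the 3M set, in TMM-scaled CPM with a grey line at 0. Points are libraries (Chaf1a cko 3M red, Ctrl 3M dark blue, replicates 1 to 3 from left to right) and the bar beside them is the mean with its SD (n = 3 each), which reaches below 0 where 1 library is far above the others; replicate 1 of Ctrl 3M stands highest for Anln (36.4 CPM), Septin7 (380 CPM), Cep55 (3.38 CPM) and, by less, Kif20a (3.28 CPM).

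Per kilobase of exon Septin7 was again highest, at 65.7 ± 14.6 CPM in Chaf1a cko 3M and 100 ± 43.4 CPM in Ctrl 3M (SD, n = 3 each), and it was apart from all others. The other 9 averaged from 0.0310 (Cep55) to 1.83 (Racgap1) CPM per kilobase in Chaf1a cko 3M and from 0.189 (Iqgap3) to 3.06 (Anln) in Ctrl 3M, and no neighbours among them differed beyond their mean ± SD ranges. In the wider list, 39 of the 41 other cytokinesis genes were tested, 0 were called by edgeR or by DESeq2, and the median log2 fold change was -0.03. An unadjusted p under 0.05, which 6.93% of all genes had, was found for 2 of the 39, so the count is no result about the list. Rock1, the kinase that activates myosin downstream of RhoA, was at 223, 140 and 130 CPM in Chaf1a cko 3M, against 803, 231 and 363 CPM in Ctrl 3M (log2 fold change -1.5, adjusted p 0.633, and -0.85 without replicate 1 of Ctrl 3M). Myl12a, a regulatory light chain of nonmuscle myosin, was at 199, 382 and 305 CPM in Chaf1a cko 3M, against 594, 439 and 489 CPM in Ctrl 3M (log2 fold change -0.78, adjusted p 0.633). Of the other roles, Plk1 had a log2 fold change of -1.06 (adjusted p 0.760), Kif20b -0.92 (adjusted p 0.860), Kif4 0.74 (adjusted p 0.891), the microtubule-severing Spast 0.44 (adjusted p 0.731) and the ESCRT subunit Chmp1b -0.32 (adjusted p 0.784). Leaving out 1 library moved Plk1 between -1.42 and -0.63, Kif20b between -1.66 and -0.52 and Kif4 between 0.44 and 1.16. Aurkb had 4, 28 and 30 counts in Chaf1a cko 3M, against 0, 0 and 12 counts in Ctrl 3M. Its estimate of 2.08 (SE 1.80, adjusted p 0.850) was 1.48 without replicate 2 of Ctrl 3M, and without replicate 3 no count is left in Ctrl 3M.

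The mitosis list had 0 of 15 tested genes called in the 3M set by edgeR or DESeq2, and 1 at an unadjusted p under 0.05, a share near the 6.93% of all genes. That gene, Cenpf, was at 35.7, 5.01 and 9.04 CPM in Chaf1a cko 3M, against 1.5, 4.26 and 2.72 CPM in Ctrl 3M (log2 fold change 2.53, adjusted p 0.620, and 1.30 without replicate 1 of Chaf1a cko 3M). Ccnb2, a mitotic cyclin, had a log2 fold change of 1.79 (adjusted p 0.755). The regulators Rbl1 and E2f4 had log2 fold changes of -0.92 (adjusted p 0.703) and -0.34 (adjusted p 0.760), each with groups that did not overlap, as did 14.1% of all genes and 2 of the 11 regulators. Without replicate 1 of Ctrl 3M the estimate of Rbl1 was -0.57. The 10 macrophage markers summed to 283 to 347 CPM in Chaf1a cko 3M and 448 to 565 CPM in Ctrl 3M, the fibroblast markers to 1180 to 1626 CPM in Chaf1a cko 3M and 1316 to 2452 CPM in Ctrl 3M, and the 10 epicardial markers, with Upk3b, Msln and Bnc1 at 0 in all libraries, to 26.7 to 52.8 CPM in Chaf1a cko 3M and 73.1 to 147 CPM in Ctrl 3M. Their part in the values of the cytokinesis genes was not tested.

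**Figure D5:**
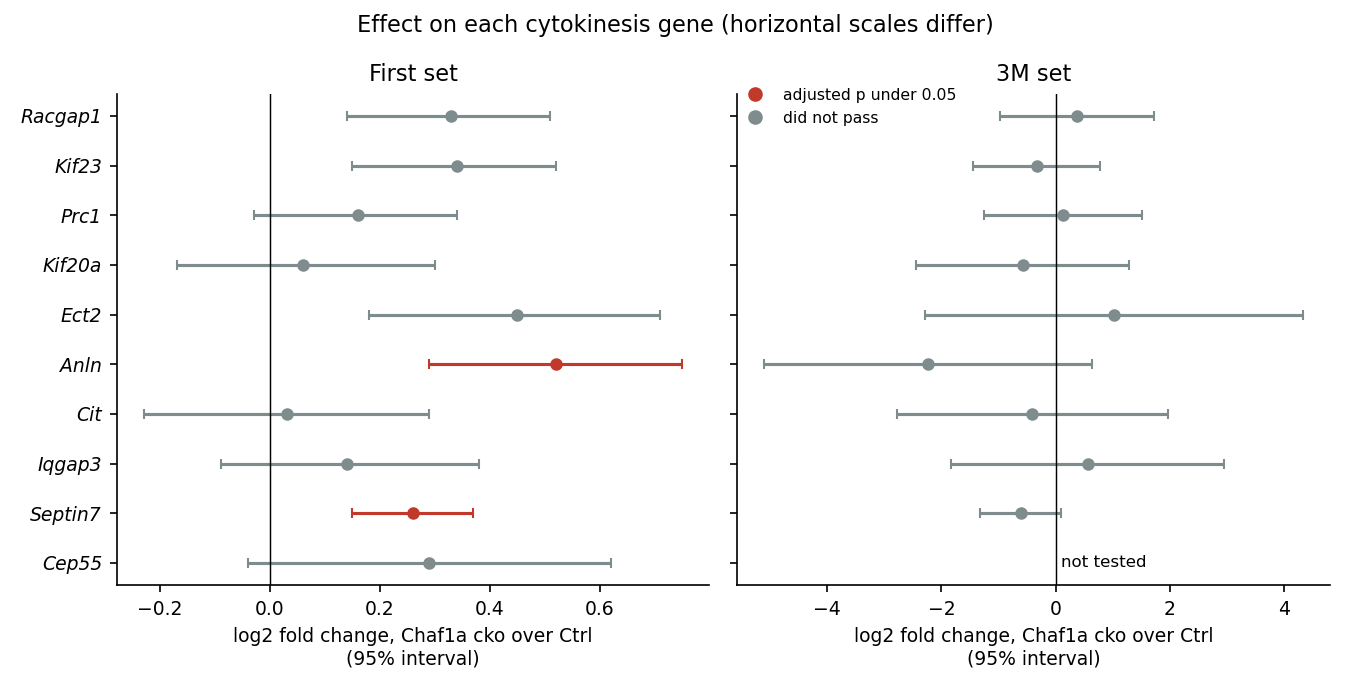
Log2 fold change of Chaf1a cko over Ctrl for each of the 10 cytokinesis genes in the first set (left) and the 3M set (right), with 95% intervals and horizontal scales that differ. Anln and Septin7 in the first set (red) have an adjusted p under 0.05 in edgeR; in the 3M set all 9 intervals cross 0, and Cep55 was not tested.

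Whether the effect differed between the sets was tested as the interaction of set and genotype over all 12 libraries. None of the 10 genes passed in edgeR's quasi-likelihood test or in DESeq2, while 0.0658% and 1.99% of all genes tested did. At an unadjusted p under 0.05, which 9.47% of all genes had, there were 3. The effect in the 3M set minus that in the first set was -2.73 for Anln (SE 1.19, p 0.0426), -0.83 for Septin7 (SE 0.36, p 0.0399) and -3.73 for Cep55 (SE 1.65, p 0.0450), all on the log2 scale and all with an adjusted p of 0.526. Replicate 1 of Ctrl 3M was the highest library of the 3M set for these 3 genes, as it was for Kif20a, whose difference was -0.60 (p 0.231). Without that library the difference was -0.54 for Anln, -0.47 for Septin7 and -0.76 for Cep55. For the other 7 the difference ran from -0.63 (Kif23) to 0.66 (Ect2), with intervals that all held 0.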

How the data were processed

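The authors deposited unnormalized counts, whole numbers for each gene symbol, as 2 tables with 6 columns of libraries each. Per the labels' protocols, TRIzol-extracted total RNA was depleted of ribosomal RNA and made into stranded libraries, and every library carries the same batch number. Per the submitters' processing notes, FastQC, Trimmomatic and HISAT2 were used, with mm10 as the genome. Tool versions, and how reads were counted and on which strand, are unknown here. Control columns of the first table are headed WT and were matched to Ctrl by genotype and number.

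For each set, edgeR 4.0.16 (R 4.3.3) was run on its 6 libraries: filterByExpr with a minimum count of 10 and a total of 15, TMM scaling, then the robust quasi-likelihood fit and its two-sided test, with Benjamini-Hochberg adjustment over all genes tested and a threshold of 0.05. The interaction of set and genotype came from 1 fit to the 12 libraries, and the sets' own levels were not compared. Alternatives were DESeq2 1.42.0, other scalings and filters, a replicate block, and leaving out each library. Standard errors and intervals cover both counting error and variation among libraries. For the interaction, that variation was pooled over both sets, whose spread differed. Exon lengths and gene positions come from the GENCODE M21 annotation of GRCm38, which matched 24715 symbols (97.9%), and background was the median CPM per kilobase over 1532 chemoreceptor genes with a length.

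The members and gene lists were chosen with earlier results of these data known. Named were all 10 members, every called gene of the wider cytokinesis list and the 2 smallest p of each role in each set, up to 6 called genes (or the 2 smallest p) of the mitosis and regulator lists, Chaf1a, and the 6 genes most like the members in each set. Any other gene that a small count names was picked with its values in view. Levels of the lymphocyte, mural and epicardial markers in the first set, and of the lymphocyte, mural, endothelial and erythroid markers in the 3M set, are given with the other observations. Tests were checked on simulated data.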

Additional observations from a re-analysis of the deposited data

How the results depend on the processing

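The count of cytokinesis genes called in the first set was 2 under DESeq2 size factors, library size alone and both other filters, as in the reported fit, and 5 in the DESeq2 Wald test. It was 0 to 1 when 1 library was left out, and the 10 estimates kept their median between 0.23 and 0.31 in these fits. Whether the replicate numbers pair the libraries is unknown here. Deviations of same-numbered libraries correlated between -0.028 and 0.048, and those of other pairs between -0.05 and 0.028. So few libraries cannot settle it. With a replicate block the count was 1, since Anln had an adjusted p of 0.0799, and calls over all genes numbered 192 (first set) and 0 (3M set). The wider cytokinesis list had 2 calls in the DESeq2 test of the first set. Over all genes the first set had 270 calls, 479 in DESeq2 and 128 to 201 without 1 library. The 3M set had 2 calls, 72 in DESeq2, 6 with no filter and 0 to 5 without 1 library. No member was called in the 3M set or for the difference between sets under any alternative run. With a filter of 10 CPM, Septin7 was the only member left in the 3M set, at -0.61.

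Leaving out 1 library turned the sign of estimates that had not passed. For the first set, Kif20a ranged from -0.01 to 0.15, Cit from -0.09 to 0.11 and Chaf1a from -0.13 to 0.27. For the 3M set, Prc1 ranged from -0.14 to 0.34, Anln from -3.03 to 0.03, Cit from -0.97 to 0.44 and Chaf1a from -0.16 to 0.96. For the difference between sets Racgap1 ranged from -0.32 to 0.60, Ect2 from -0.10 to 1.48 and Cit from -1.05 to 0.45. The cause was not tested. Low counts limit the 3M set, where all but Septin7 of the 10 genes had 388 counts or fewer in every library.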

Other observations

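Over the 6 libraries of the first set, the genes whose log2 CPM followed the mean centred profile of the 10 cytokinesis genes most closely were Rps4x (Pearson r = 0.997), Itga1 (0.994), Selenof (0.989), Spry1 (0.987), Hnrnpf (0.985) and Eif2ak1 (0.985), among 11276 genes whose average log2 CPM reached 3. Of these, Itga1 was called higher in Chaf1a cko (log2 fold change 0.33, adjusted p 0.0320 in edgeR's quasi-likelihood test), and Rps4x was not (0.23, adjusted p 0.0592). In the 3M set the closest to the profile of the 9 tested members were Nop58 (0.991), Zfp354a (0.988), Ate1 (0.985), Iigp1 (0.985), Actr6 (0.983) and Rbp7 (0.980), among 10147 genes, and none of them was called. The lists of the 2 sets share no gene. These values describe 6 libraries in 2 groups of 3, and no test was made.

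Of the remaining marker lists in the first set, mural markers summed to 723 to 749 CPM in Chaf1a cko and 704 to 740 CPM in Ctrl, epicardial markers to 140 to 147 CPM in Chaf1a cko and 138 to 142 CPM in Ctrl, and lymphocyte markers to 20.0 to 26.4 CPM in Chaf1a cko and 21.2 to 31.1 CPM in Ctrl. In the 3M set, mural markers summed to 1046 to 1144 CPM in Chaf1a cko 3M and 1003 to 1327 CPM in Ctrl 3M, endothelial markers to 8954 to 9831 CPM in Chaf1a cko 3M and 8582 to 12205 CPM in Ctrl 3M, and lymphocyte markers to 4.46 to 9.56 CPM in Chaf1a cko 3M and 3.85 to 15.9 CPM in Ctrl 3M. Erythroid markers ranged from 446 to 4012 CPM in Chaf1a cko 3M and from 447 to 1036 CPM in Ctrl 3M. Summed Y-linked genes were at 355 to 394 CPM in Chaf1a cko 3M and 393 to 646 CPM in Ctrl 3M.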
